A study of Mus musculus with 16 samples.

Results

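The transcripts described here encode 7 CXC chemokines of the mouse, Cxcl1, Cxcl2, Cxcl3, Cxcl5, Ppbp, Pf4 and Cxcl16, among the 22287 genes of the count table. They were chosen by gene symbol, and all 7 passed the expression filter. They were measured by RNA-seq in 16 libraries of bone marrow derived macrophages (BMDMs), in 8 groups of 2 libraries each. Bone marrow of 8-week-old C57BL/6J mice, a common inbred strain, was grown for 7 days with GM-CSF (GM) or M-CSF (M), the growth factors that drive marrow cells toward macrophages. Cells were kept on dishes treated for cell adherence (TC) or on untreated dishes (noTC). They were then given LPS, a cell wall component of Gram-negative bacteria sensed by TLR4, or vehicle for 3 h. Group names join growth factor and dish, as in GM-TC or M-noTC for cells at steady state (vehicle), and end in LPS where it was given, as in GM-TC-LPS. The question put to each transcript was how it answered to LPS, to the dish and to the growth factor. The paper calls the 2 libraries of a group biological replicates. Whether they came from separate mice is not stated, so p-values measure the spread between these libraries, which may not be that between mice.

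CXC chemokines are small secreted proteins named for a pair of cysteines separated by 1 other residue. CXCL1, CXCL2, CXCL3, CXCL5 and the processed form of PPBP carry an ELR motif, bind CXCR2 and draw neutrophils into tissue. PF4 (CXCL4) is best known from platelet granules and does not carry that motif, and CXCL16 is made as a membrane protein that binds CXCR6 and can be shed by ADAM10 and ADAM17. In macrophages the genes of the CXCR2 ligands are rapidly switched on by TLR4 through NF-kB, and their mRNAs are short lived. Among the annotated genes on mouse chromosome 5, 6 members stand in 1 cluster, in the order Cxcl5, Ppbp, Pf4, Cxcl3, Cxcl1 and Cxcl2, with Cxcl15 between Cxcl3 and Cxcl1. Cxcl16 lies outside the cluster.

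RefSeq promoter entries of build GRCm38.p6 were found for 5 of the 7 members, and the 120 bases before each annotated start are shown because members of the cluster differed widely in their answer to LPS. Capitals mark matches to the NF-kB consensus, to ATAAAAGG and to TATAAA, searched on both strands, and overlapping matches are joined. No entry was found for Cxcl5 or Cxcl16.
Cxcl1, chr5:90891125-90891244, + strand: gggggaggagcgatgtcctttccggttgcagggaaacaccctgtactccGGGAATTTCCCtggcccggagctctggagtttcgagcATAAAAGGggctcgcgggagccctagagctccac
Cxcl2, chr5:90903779-90903898, + strand: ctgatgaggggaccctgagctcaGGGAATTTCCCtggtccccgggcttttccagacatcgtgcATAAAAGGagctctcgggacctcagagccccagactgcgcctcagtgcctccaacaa
Cxcl3, chr5:90785981-90786100, + strand: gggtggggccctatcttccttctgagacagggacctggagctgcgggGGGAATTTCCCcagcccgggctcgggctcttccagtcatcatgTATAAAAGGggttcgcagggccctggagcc
Ppbp, chr5:90768398-90768517, + strand: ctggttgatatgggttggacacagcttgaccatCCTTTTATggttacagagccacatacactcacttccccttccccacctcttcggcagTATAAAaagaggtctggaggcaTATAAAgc
Pf4, chr5:90772315-90772434, + strand: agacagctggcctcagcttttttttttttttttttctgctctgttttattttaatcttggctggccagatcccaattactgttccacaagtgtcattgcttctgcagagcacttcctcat

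A match to the NF-kB consensus was found in 3 of the 5 windows, those of Cxcl1, Cxcl2 and Cxcl3, each as a pair of overlapping matches on 1 stretch. It lay 71 to 61 bases before the start in Cxcl1, 97 to 87 bases in Cxcl2 and 73 to 63 bases in Cxcl3. Among 32544 promoters, 3.92% held such a match within 250 bases before the start. ATAAAAGG stood 34 to 27 bases before the start in Cxcl1, 57 to 50 bases in Cxcl2 and 29 to 22 bases in Cxcl3, where it overlapped TATAAA. It was also found on the opposite strand 87 to 80 bases before the start of Ppbp, and 1.54% of all promoters held it. TATAAA, present in 12.3% of all promoters, was found in the windows of Cxcl3 and Ppbp. The window of Pf4 held none of the 3 motifs. A match is a description of these letters and was not tested as a binding site.

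Libraries held 17527802 to 31458363 counts, and 3 counts were taken as the limit of detection of a library. Before TMM scaling this limit equalled 0.0954 to 0.171 CPM (counts scaled to a common library total). Levels below are CPM with TMM scaling, which corrects for differences in library makeup, and values after ± are SD over the 2 libraries for levels and SE of the fit for log2 fold changes. Markers of macrophages were detected as 8 of 8 in every group, with a summed level of 20100 to 47100 CPM. Most of this sum was Lyz2, at 14900 to 41600 CPM. Adgre1, Csf1r, Cd68 and Fcgr1 were lower in GM- than in M-BMDMs, and Lyz2, Itgam, Mertk and Mrc1 were higher. The 4 libraries of GM-TC and M-TC stood apart from the other 12, in that 7 heart muscle markers summed to 21 to 58.6 CPM in them against at most 0.814 CPM elsewhere. The noTC libraries at steady state also held, for most genes near 0 on TC dishes and abundant elsewhere, a similar percentage of the level in the other libraries. This bears on Cxcl1, Cxcl2 and Cxcl3. Values after the subtraction of this shared percentage are given beside those from the deposited counts. At steady state the dish and this division of the libraries cannot be told apart.

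Upon LPS challenge the transcripts of Cxcl1, Cxcl2 and Cxcl3 were upregulated most among the 7 members in all 4 cultures, by 45.2-fold to 4600-fold in the deposited counts. The lowest value, that of Cxcl3 in M-noTC, was 5.50 on the log2 scale and 10.09 after the subtraction. With TMM scaling Cxcl16 rose 2.29-fold to 3.66-fold and Pf4 1.3-fold to 2.52-fold. Cxcl5 rose in GM-BMDMs, and Ppbp rose in GM-noTC. At a Benjamini-Hochberg (BH) adjusted p under 0.05 in edgeR's quasi-likelihood test over 12514 genes, 6 members rose on TC and 7 on noTC dishes in GM-BMDMs, and 6 and 5 in M-BMDMs. No member fell in any of these cultures. Of all tested genes 67, 67.7, 74 and 72.3% were called in these 4 comparisons in the same order, of which 32.8, 33.6, 37.6 and 36.4% were higher and 34.2, 34, 36.4 and 35.9% lower, as percentages of the genes tested. The median log2 fold change of the 7 members was 1.52, 2.08, 3.47 and 2.48, beside medians of -0.05, -0.03, -0.01 and -0.01 over all tested genes. Stromal cells also make these chemokines, and the summed level of 7 stromal markers was 1.35 to 6.11 CPM at steady state and 22.7 to 49 CPM upon LPS. On TC dishes Pdgfrb was 32.3 to 36.5 CPM of it upon LPS, and the collagen gene Col1a1 was 0.984 to 3.21 CPM. The part of such cells in the result was not tested. RNA was measured in bulk, so fewer expressing cells and less RNA per cell cannot be told apart.

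**Figure D1:**
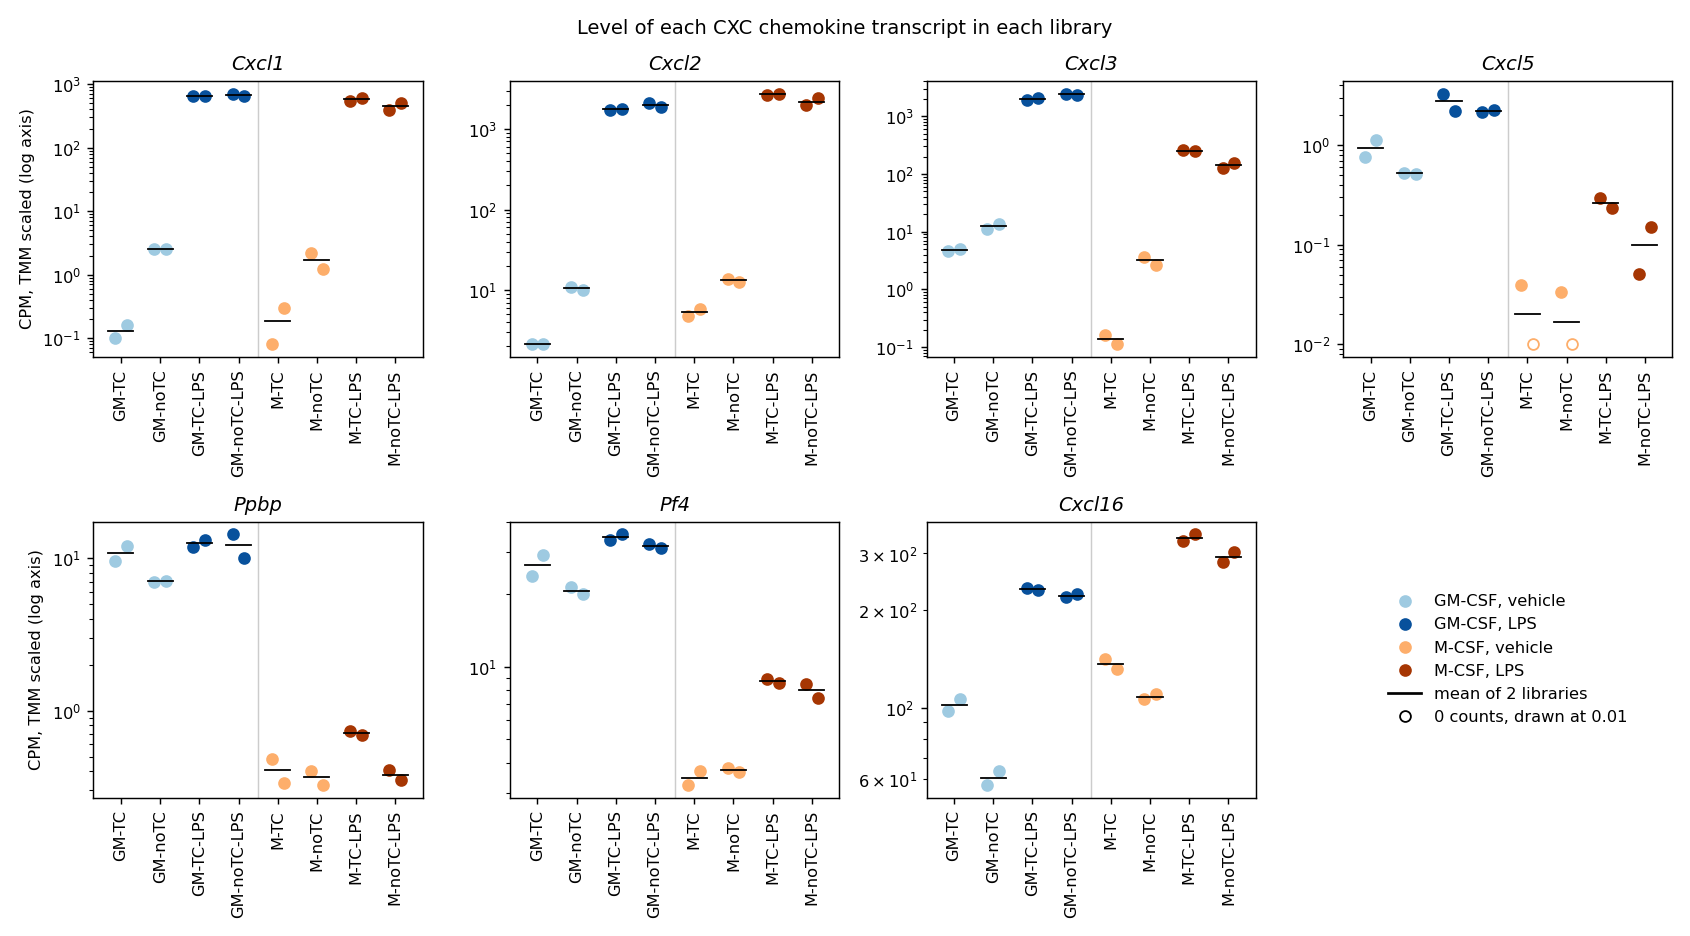
Level of each of the 7 transcripts in each library, in CPM with TMM scaling on a log axis that differs between panels, with 8 groups on the horizontal axis. Points are libraries, black lines are means of 2 libraries, and open points are libraries with 0 counts drawn at 0.01; Cxcl1, Cxcl2 and Cxcl3 sit 45.2-fold to 4600-fold higher upon LPS, whereas the GM libraries of Ppbp and Pf4 all sit above their M libraries.

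Cxcl1, a ligand of CXCR2 also known as KC, was close to absent at steady state on TC dishes. GM-BMDMs held 0.101 and 0.161 CPM on TC and 2.49 and 2.51 CPM on noTC dishes. M-BMDMs held 0.0798 and 0.299 CPM on TC and 2.19 and 1.21 CPM on noTC dishes, and the TC libraries rested on 2 to 8 counts each. Every steady state library thus lay far below the LPS libraries, which did not overlap with them. Upon LPS challenge Cxcl1 reached 642 and 643 CPM on TC and 712 and 658 CPM on noTC dishes in GM-BMDMs. M-BMDMs reached 553 and 611 CPM on TC and 398 and 497 CPM on noTC dishes. This was a log2 fold change of 12.17 ± 0.21 (SE) on TC and 8.09 ± 0.14 on noTC dishes in GM-BMDMs, and of 11.52 ± 0.20 and 8.11 ± 0.15 in M-BMDMs. The edgeR adjusted p for Cxcl1 lay between 1.7e-22 and 4e-22 in the 4 cultures. After the subtraction the values on noTC dishes were 11.37 ± 0.23 in GM- and 11.04 ± 0.23 in M-BMDMs. The fold on TC dishes rested on 6 steady state counts in GM-TC and 10 in M-TC, and that of M-TC was 10.90 without M-TC replicate 1 and 12.74 without M-TC replicate 2. The ± values of these folds are too narrow as errors. On the same counts of GM-TC the dish effect of Cxcl1 at steady state had an SE of 0.53.

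Cxcl2, the CXCR2 ligand known as MIP-2, rose in every culture. At steady state GM-BMDMs had 2.12 and 2.17 CPM on TC and 10.9 and 10.1 CPM on noTC dishes, and M-BMDMs had 4.71 and 5.84 CPM on TC and 13.9 and 12.6 CPM on noTC dishes. All 4 groups were apart from each other. With LPS, Cxcl2 came to 1740 and 1790 CPM on TC and 2110 and 1900 CPM on noTC dishes in GM-BMDMs, and to 2650 and 2750 CPM on TC and 1960 and 2390 CPM on noTC dishes in M-BMDMs. The highest levels were thus those of M-TC-LPS, and the values of M-noTC-LPS and GM-noTC-LPS overlapped. The log2 fold change of Cxcl2 was 9.68 ± 0.12 on TC and 7.58 ± 0.10 on noTC dishes in GM-BMDMs, and 8.99 ± 0.11 and 7.37 ± 0.10 in M-BMDMs, with edgeR adjusted p-values of at most 4.7e-24. After the subtraction it was 9.83 ± 0.14 in GM- and 8.29 ± 0.12 in M-BMDMs on noTC dishes.

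Cxcl3, the third of these close relatives, was in every condition higher in GM- than in M-BMDMs. At steady state the GM libraries held 4.7 and 4.95 CPM (TC) and 11.2 and 13.8 CPM (noTC), and the M libraries held 0.16 and 0.112 CPM (TC) and 3.67 and 2.69 CPM (noTC). After LPS the GM libraries held 1920 and 2050 CPM (TC) and 2460 and 2330 CPM (noTC), and the M libraries held 256 and 250 CPM (TC) and 125 and 156 CPM (noTC). No pair of neighbouring groups in the order of levels overlapped for Cxcl3. Its response to LPS on the log2 scale was 8.68 ± 0.12 on TC and 7.57 ± 0.11 on noTC dishes in GM-BMDMs, and 10.82 ± 0.19 and 5.50 ± 0.12 in M-BMDMs, with edgeR adjusted p-values of at most 1.1e-20. After the subtraction the values on noTC dishes were 8.21 ± 0.14 in GM- and 10.09 ± 0.24 in M-BMDMs, the latter on 9 and 0 counts left in M-noTC. The value for M-BMDMs on TC dishes rested on 7 steady state counts, and its SE is too narrow. On the same counts the dish effect of Cxcl3 had an SE of 0.41.

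Cxcl5, a CXCR2 ligand best known from epithelial cells, was scarce. In GM-BMDMs it had 0.757 and 1.13 CPM on TC and 0.53 and 0.517 CPM on noTC dishes at steady state, against 3.31 and 2.23 CPM on TC and 2.18 and 2.28 CPM on noTC dishes with LPS. In GM-BMDMs the LPS libraries were all above the steady state libraries, with log2 fold changes of 1.52 ± 0.36 (edgeR adjusted p = 0.00089) on TC and 2.08 ± 0.40 (adjusted p = 8.6e-05) on noTC dishes. In M-BMDMs Cxcl5 had 1 count in M-TC and 1 in M-noTC over both libraries, which is under the limit of 3 counts. It had 10 counts in M-TC-LPS and 4 in M-noTC-LPS. The ratio to steady state was 13.8 (95% exact interval from 1.96 to 599) on TC and 7.36 (0.728 to 363) on noTC dishes, intervals that cover counting error only. The call of Cxcl5 in M-TC (adjusted p = 0.0072) was lost without M-TC replicate 2, where the adjusted p was 0.063. On noTC dishes Cxcl5 was not called (adjusted p = 0.089) unless M-noTC replicate 1 was left out, where the adjusted p was 0.046.

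Ppbp encodes pro-platelet basic protein, the precursor of the CXCR2 ligand CXCL7, and was scarce in M-BMDMs. GM-BMDMs held 9.59 and 12 CPM on TC and 7.05 and 7.06 CPM on noTC dishes at steady state, and 11.9 and 13.3 CPM on TC and 14.4 and 10.1 CPM on noTC dishes with LPS. All 8 M-BMDM libraries lay between 0.325 and 0.738 CPM, on 7 to 15 counts each. Upon LPS challenge Ppbp rose in GM-noTC, by 0.80 ± 0.16 on the log2 scale (edgeR adjusted p = 0.00013). The log2 fold changes in GM-TC (0.22 ± 0.15), M-TC (0.82 ± 0.45) and M-noTC (0.08 ± 0.50) did not pass the test, with adjusted p-values of 0.21, 0.11 and 0.9.

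Pf4, the platelet factor that binds heparin, stood in GM-BMDMs at 23.9 and 29 CPM (TC) and 21.4 and 20 CPM (noTC) before LPS and at 33.6 and 35.5 CPM (TC) and 32.4 and 31.2 CPM (noTC) after it. The M-BMDM libraries stood at 3.23 and 3.7 CPM (TC) and 3.81 and 3.67 CPM (noTC) before LPS and at 8.91 and 8.6 CPM (TC) and 8.52 and 7.43 CPM (noTC) after it. LPS libraries were above their steady state counterparts in every culture. Its log2 fold change was 0.38 ± 0.09 (TC) and 0.62 ± 0.09 (noTC) in GM-BMDMs and 1.33 ± 0.14 (TC) and 1.10 ± 0.13 (noTC) in M-BMDMs, with edgeR adjusted p-values from 2.1e-08 to 0.00078.

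The small changes of Ppbp and Pf4 depended on the scaling. With library size in place of TMM the median over all tested genes of the log2 LPS response was -0.53 (TC) and -0.54 (noTC) in GM-BMDMs and -0.83 (TC) and -0.73 (noTC) in M-BMDMs, against -0.05 to -0.01 with TMM, and the share of called genes that were higher went from 48.9 to 21.5% in GM-TC. The log2 fold change upon LPS was then -0.26 for Ppbp and -0.10 for Pf4 in GM-TC, and neither passed the test. In GM-noTC it was 0.29 for Ppbp and 0.11 for Pf4 and both calls were lost, whereas the direction of Ppbp in M-noTC turned to -0.63 without passing the test. Relative to the median of all genes under the same scaling, the values of both members in GM-BMDMs were positive. Pf4 kept its calls in M-BMDMs but rose less by library size, from a mean of 4.82 to 6.86 CPM on TC dishes.

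Cxcl16, the membrane bound ligand of CXCR6, was abundant in all libraries. Without LPS the GM libraries had 97.3 and 106 CPM on TC and 57.6 and 63.5 CPM on noTC dishes, and the M libraries had 141 and 132 CPM on TC and 106 and 110 CPM on noTC dishes. With LPS the GM libraries had 234 and 232 CPM on TC and 220 and 224 CPM on noTC dishes, and the M libraries had 328 and 344 CPM on TC and 283 and 303 CPM on noTC dishes. No neighbouring groups in the order of levels overlapped with TMM scaling. By library size M-TC (196 and 183 CPM) overlapped with GM-TC-LPS (188 and 185 CPM). The rise upon LPS was also smaller by library size, from a mean of 189 to 263 CPM in M-TC and from 114 to 187 CPM in GM-TC. The log2 fold change of Cxcl16 was 1.20 ± 0.06 on TC and 1.87 ± 0.06 on noTC dishes in GM-BMDMs, and 1.30 ± 0.06 and 1.44 ± 0.06 in M-BMDMs, with edgeR adjusted p-values from 3e-17 to 6.7e-14. The deposited Cxcl16 values were not whole in any of the 16 libraries, and each became whole within 0.011 when the value of Zmynd15 was added, so reads were divided between these genes. Zmynd15 held 0.636 to 2.67% as many counts as Cxcl16.

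**Figure D2:**
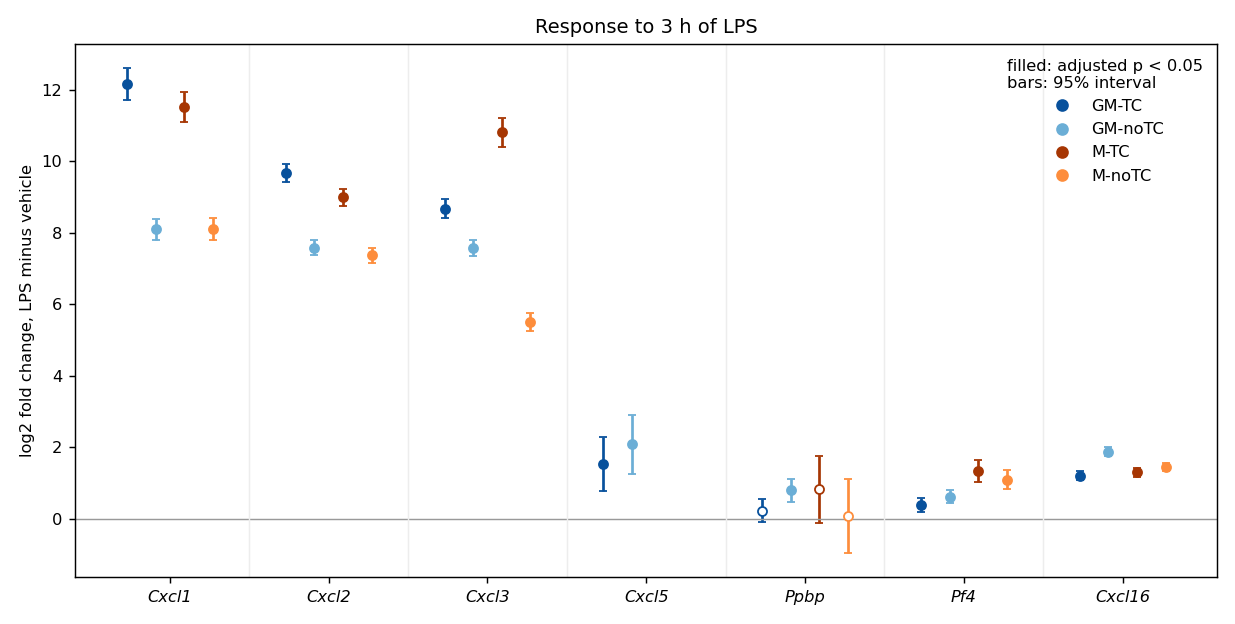
Log2 fold change upon 3 h of LPS (LPS minus vehicle, vertical axis) of each member in the 4 cultures, with 95% intervals from the edgeR fit. These intervals are too narrow where the steady state group held few counts. Filled points passed an adjusted p of 0.05, and Cxcl5 in M-BMDMs is left out because its steady state groups held 1 count each; Cxcl1, Cxcl2 and Cxcl3 lie between 5.50 and 12.17, and the other members at or below 2.08.

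Between genes, levels were compared per kilobase of the longest annotated transcript (GENCODE vM21) on the scale of CPM by library size. On this scale Pf4 was the highest of the 7 members in both GM groups at steady state, at 50.3 ± 6.2 in GM-TC and 39.7 ± 1.92 in GM-noTC. In GM-TC it was followed by Cxcl16 at 42.1 ± 1.89. Cxcl16 was the highest in M-TC (70.2 ± 3.23) and M-noTC (55 ± 0.973). Cxcl2 led in all 4 LPS groups, with 686 ± 10.4 in GM-TC-LPS and 1020 ± 16 in M-TC-LPS. With the longest protein-coding transcript as the length, an alternative chosen after seeing the data, Cxcl3 led in both GM groups upon LPS (1570 ± 70.3 in GM-TC-LPS, against 762 ± 11.5 for Cxcl2), and Cxcl2 still led in both M groups.

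At steady state the noTC dish was accompanied by higher Cxcl1, Cxcl2 and Cxcl3 and lower Cxcl16 in both kinds of BMDMs. In GM-BMDMs 6 of the 7 members were called, 3 higher and 3 lower, beside 7.54% of all tested genes (4.69% higher and 2.85% lower). In M-BMDMs 4 members were called, 3 higher and 1 lower, beside 27.2% of all tested genes (16.1% higher and 11.1% lower). In GM-BMDMs the log2 fold change from TC to noTC was 4.17 ± 0.53 for Cxcl1 (edgeR adjusted p = 1.6e-05), 2.28 ± 0.17 for Cxcl2 (9.2e-09) and 1.38 ± 0.15 for Cxcl3 (2.1e-06). In M-BMDMs it was 3.03 ± 0.50 for Cxcl1 (adjusted p = 6.9e-05), 1.32 ± 0.13 for Cxcl2 (6.9e-08) and 4.47 ± 0.41 for Cxcl3 (3e-08). That of Cxcl1 in M-BMDMs was 2.41 without M-TC replicate 1 and 4.25 without M-TC replicate 2.

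The size of these increases moved with the excess that the noTC libraries at steady state shared. For 14 genes outside the members that stayed under 1 CPM in GM-TC and averaged at least 100 CPM over 10 further libraries (all but those of GM-noTC and of both TC groups at steady state), the excess of GM-noTC over GM-TC had a median of 0.671% of that average, and 13 of the 14 lay within 1.5 times of it. In M-BMDMs the median over 17 such genes was 0.615%, with 15 within 1.5 times. The full range over these genes was 0.39 to 0.907% in GM- and 0.0084 to 0.845% in M-BMDMs. The excess of Cxcl1 was 0.707% in GM-BMDMs and 0.551% in M-BMDMs, that of Cxcl2 was 0.677% and 0.785%, and that of Cxcl3 was 1.14% and 0.551%. With this median excess taken off each gene's counts in the noTC libraries at steady state, Cxcl1 had 6 and 7 counts left of 61 and 68 in GM-noTC, and 15 and 0 of 65 and 52 in M-noTC. Cxcl3 had 9 and 0 counts left of 109 and 116 in M-noTC, but 164 and 251 of 275 and 374 in GM-noTC.

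After this subtraction Cxcl3 was still higher on noTC dishes in GM-BMDMs, with a log2 fold change of 0.74 ± 0.20 (edgeR adjusted p = 0.028). SE and p-values of this fit treat the subtracted share as exact, although it ranged from 0.39 to 0.907% over its 14 genes in GM-BMDMs. The calls of Cxcl1 and Cxcl2 were lost, at 0.89 ± 1.12 (adjusted p = 0.72) and 0.04 ± 0.26 (0.96) in GM-BMDMs and at 0.10 ± 0.96 (0.96) and 0.40 ± 0.15 (0.062) in M-BMDMs. Cxcl3 in M-BMDMs was then at -0.11 ± 1.05 (adjusted p = 0.96). Whether the shared excess is made of reads from other libraries was not tested, and it cannot be told apart from the dish at steady state.

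The members that were lower on noTC dishes barely moved with the subtraction, which took few of their counts and so could hardly test them. In GM-noTC replicate 1 it left 172 of 173 counts of Ppbp, 524 of 526 of Pf4 and 1384 of 1414 of Cxcl16. Cxcl16 fell by 0.74 ± 0.06 on the log2 scale in GM-BMDMs (edgeR adjusted p = 5.7e-08) and by 0.34 ± 0.06 in M-BMDMs (adjusted p = 0.00016), and by 0.76 and 0.34 after the subtraction. Ppbp fell by 0.62 ± 0.16 (adjusted p = 0.017) and Pf4 by 0.36 ± 0.09 (adjusted p = 0.018) in GM-BMDMs. Both calls were lost in a fit to the 4 libraries alone (adjusted p of 0.065 and 0.16) and in DESeq2 (0.059 and 0.06). They were also lost without GM-TC replicate 2 (-0.44 for Ppbp and -0.20 for Pf4), without GM-noTC replicate 1 (-0.62 and -0.41) and without GM-noTC replicate 2 (-0.62 and -0.31). In M-BMDMs Ppbp (-0.18 ± 0.45) and Pf4 (0.10 ± 0.15) did not pass the test.

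**Figure D3:**
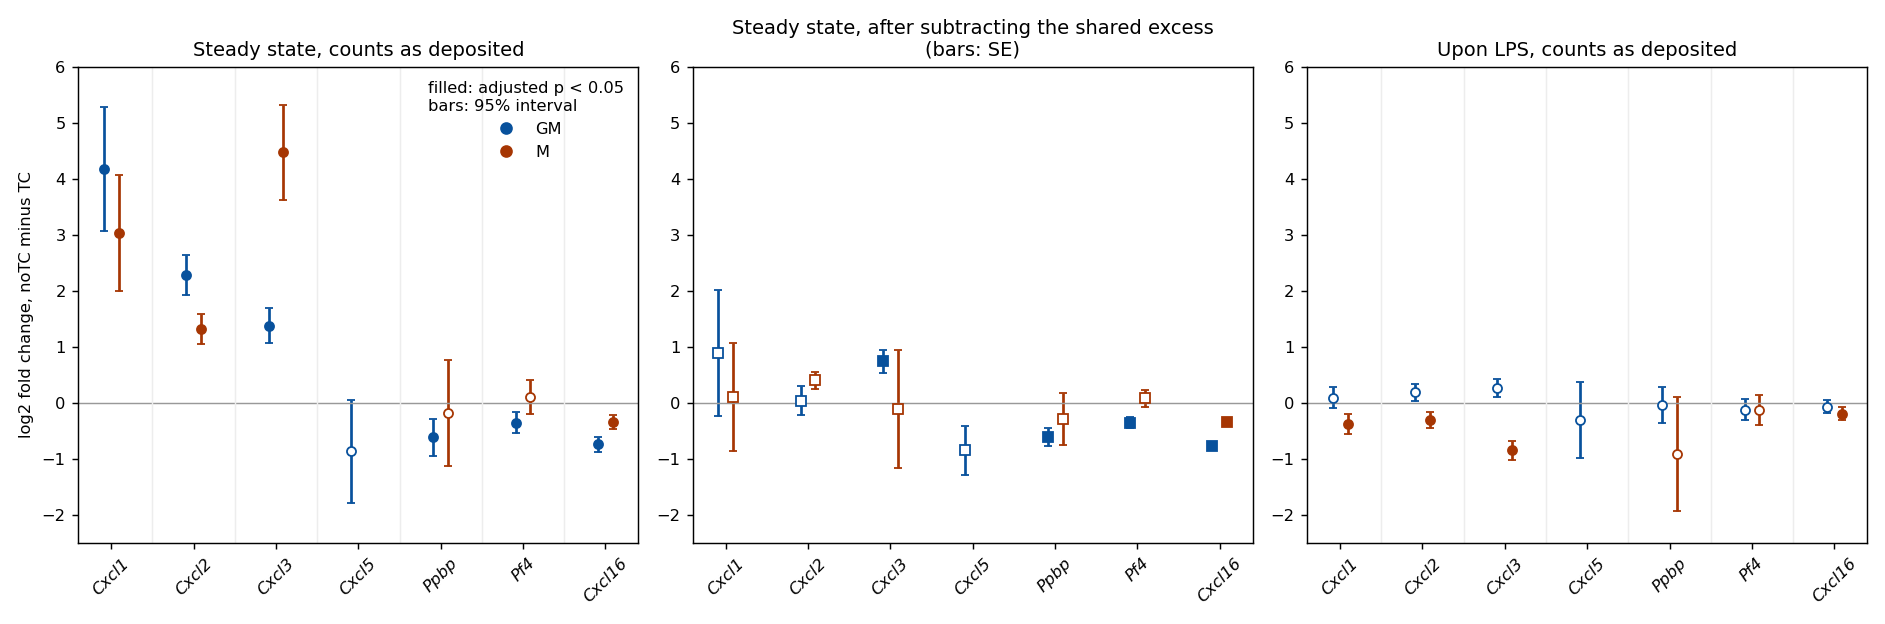
Log2 fold change from TC to noTC dishes (vertical axis) of each member in GM- and M-BMDMs: at steady state with the counts as deposited, at steady state after subtracting the shared excess, and upon LPS. Bars are 95% intervals in the outer panels and SE in the middle panel, filled points passed an adjusted p of 0.05 and Cxcl5 in M-BMDMs is left out; the high steady state values of Cxcl1, Cxcl2 and Cxcl3 come to between -0.11 and 0.89 after the subtraction.

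Upon LPS challenge no member passed the test between the dishes in GM-BMDMs, whereas 4 members were lower on noTC dishes in M-BMDMs. In GM-BMDMs 0 members were called in the edgeR fit, beside 2.8% of all tested genes (2.08% higher and 0.727% lower), and 2 members, Cxcl2 and Cxcl3, had an unadjusted p under 0.05. The log2 fold change from TC to noTC was 0.18 for Cxcl2 (95% interval from 0.04 to 0.33) and 0.27 for Cxcl3 (0.11 to 0.43). Cxcl3 passed in DESeq2 (adjusted p = 0.036), and both passed in edgeR without the expression filter and in a fit to the 4 libraries alone. The intervals of Cxcl1 (-0.09 to 0.27), Cxcl16 (-0.19 to 0.05), Pf4 (-0.31 to 0.06) and Ppbp (-0.36 to 0.27) all included 0.

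In M-BMDMs upon LPS challenge 4 members were lower on noTC dishes and none higher, beside 12.9% of all tested genes called lower, 10.4% called higher and 23.3% called in either direction. Cxcl3 fell by 0.85 ± 0.08 on the log2 scale (edgeR adjusted p = 1.3e-07), Cxcl1 by 0.38 ± 0.09 (0.0031), Cxcl2 by 0.31 ± 0.07 (0.0028) and Cxcl16 by 0.19 ± 0.06 (0.018). Values of both M-noTC-LPS libraries lay below both M-TC-LPS libraries for all 4 genes. These genes were called on the same libraries, so their separation adds nothing to the calls. Without M-noTC-LPS replicate 1, which had the lower level of each of the 4 genes in its group, only Cxcl3 was called and the values of Cxcl1, Cxcl2 and Cxcl16 were -0.23, -0.17 and -0.14. Without M-TC-LPS replicate 2 only 2 members were called, and Cxcl1 (-0.30) and Cxcl16 (-0.16) were not. Under library size scaling the call of Cxcl16 was lost (-0.11, adjusted p = 0.17). Pf4 (-0.14 ± 0.13) and Ppbp (-0.91 ± 0.49, on 27 counts in M-TC-LPS and 15 in M-noTC-LPS) did not pass the test.

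The difference between the dishes upon LPS itself differed between the growth factors for Cxcl1, Cxcl2 and Cxcl3. The interaction of dish and growth factor upon LPS, coded as the dish effect in GM- minus that in M-BMDMs, was 0.47 ± 0.12 for Cxcl1 (edgeR adjusted p = 0.016), 0.49 ± 0.10 for Cxcl2 (0.0022) and 1.12 ± 0.11 for Cxcl3 (6.9e-07), 3 members higher beside 10.6% of all tested genes (6.87% higher and 3.71% lower). At steady state the same interaction was called for 3 members, beside 11.2% (4.82% higher and 6.4% lower), at 0.97 ± 0.23 for Cxcl2, -3.10 ± 0.51 for Cxcl3 and -0.41 ± 0.09 for Cxcl16. That of Cxcl2 was not called without M-TC replicate 2 (0.80), and after the subtraction only that of Cxcl16 was called. Upon LPS that of Cxcl1 was not called in 5 of the 8 fits that left out 1 library, namely GM-TC-LPS replicate 1 (0.47), GM-TC-LPS replicate 2 (0.47), GM-noTC-LPS replicate 1 (0.41), M-TC-LPS replicate 2 (0.40) and M-noTC-LPS replicate 1 (0.32), nor with library size scaling (0.36). The interaction of dish and LPS was negative for these 3 genes in both kinds of BMDMs, whose steady state levels were higher on noTC dishes. In GM-BMDMs 4 members were called, 1 higher and 3 lower, beside 0.783% of all tested genes (0.192% higher and 0.591% lower). In M-BMDMs 3 members were called, all lower, beside 10.6% (3.11% higher and 7.48% lower). After the subtraction 1 member was called in each, Cxcl16 in GM-BMDMs (0.70 ± 0.09) and Cxcl2 in M-BMDMs (-0.71 ± 0.17).

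Growth factor separated Cxcl3, Cxcl5, Ppbp and Pf4, all higher in GM-BMDMs, from Cxcl16, which was higher in M-BMDMs, on both dishes and with or without LPS. Of the 7 members, 6 were called between GM-TC and M-TC, 7 between GM-noTC and M-noTC, 6 between GM-TC-LPS and M-TC-LPS and 6 between GM-noTC-LPS and M-noTC-LPS, beside 61.5, 62.1, 66.8 and 66.1% of all tested genes. The members called higher in GM-BMDMs were 4, 5, 4 and 5, beside 32.6, 31.4, 33.9 and 33.5% of all tested genes, and those called lower were 2, 2, 2 and 1, beside 28.9, 30.7, 32.9 and 32.6%.

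Cxcl3 was higher in GM-BMDMs by 5.11 ± 0.39 on the log2 scale on TC dishes at steady state, by 2.01 ± 0.15 on noTC dishes, by 2.97 ± 0.08 in GM-TC-LPS and by 4.09 ± 0.09 in GM-noTC-LPS, with edgeR adjusted p-values of at most 1.2e-10, and no GM library overlapped with an M library of the same dish and treatment. After the subtraction the value for noTC dishes at steady state was 5.96 ± 0.38, on 9 and 0 counts left in M-noTC. Cxcl2 went the other way, at -1.30 ± 0.20 and -0.33 ± 0.11 at steady state on TC and noTC dishes and at -0.61 ± 0.07 in TC upon LPS. In noTC upon LPS its value of -0.12 ± 0.07 did not pass the test (edgeR adjusted p = 0.15), and it was called without the filter (-0.12), with library size scaling (-0.19) and at -0.25 without M-noTC-LPS replicate 1 and turned to 0.03 without M-noTC-LPS replicate 2. The call of Cxcl2 on noTC dishes at steady state was lost without GM-noTC replicate 2 (-0.28) and without M-noTC replicate 1 (-0.28), while after the subtraction the value was -1.66 ± 0.19 (adjusted p = 9.8e-08).

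Cxcl3 and Cxcl2 moved apart between the growth factors in a measure that needs no scaling, the ratio of their counts within a library, compared here between libraries. This ratio upon LPS was 1.1 and 1.15 on TC and 1.16 and 1.23 on noTC dishes in GM-BMDMs. In M-BMDMs it was 0.0967 and 0.0911 on TC and 0.0639 and 0.0653 on noTC dishes, so all 4 M libraries lay below all 4 GM libraries by about an order of magnitude. At steady state it was 2.21 and 2.28 on TC and 1.03 and 1.37 on noTC dishes in GM-BMDMs, against 0.0339 and 0.0192 on TC and 0.265 and 0.214 on noTC dishes in M-BMDMs. After the subtraction the ratios on noTC dishes at steady state were 2.56 and 5.12 in GM- and 0.0393 and 0 in M-BMDMs. The ratio of Cxcl1 to Cxcl2 counts upon LPS was 0.337 to 0.368 in GM- and 0.203 to 0.222 in M-BMDMs.

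**Figure D4:**
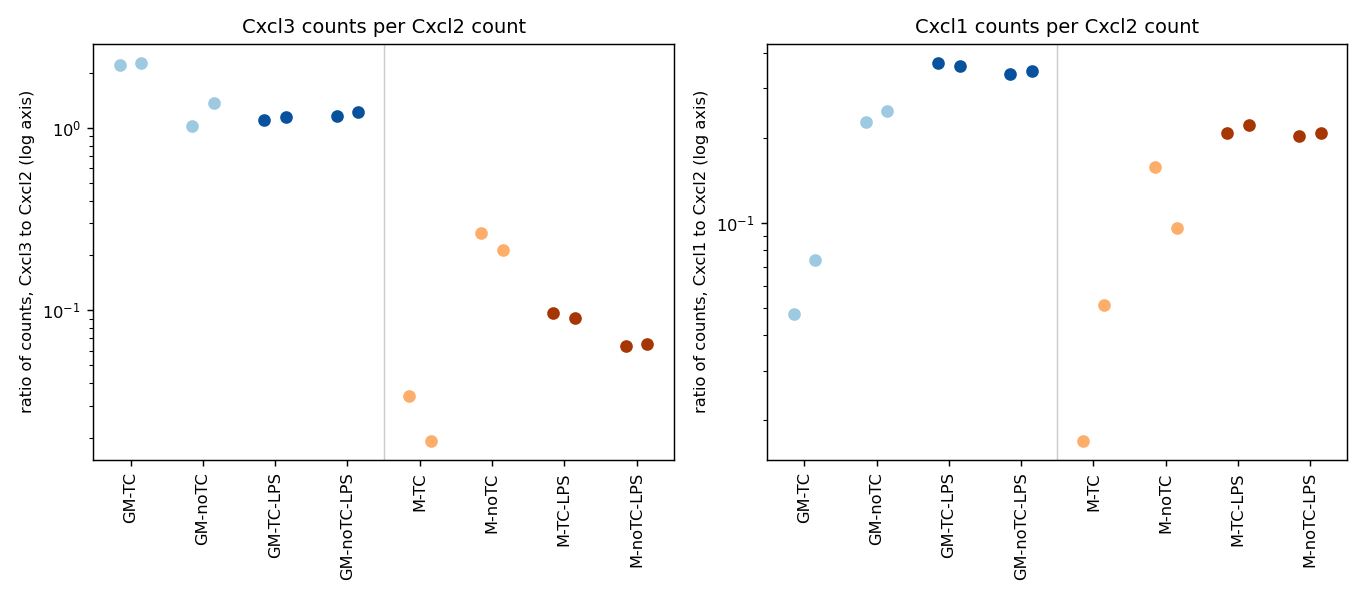
Ratio of Cxcl3 to Cxcl2 counts and of Cxcl1 to Cxcl2 counts in each of the 16 libraries, on log axes, with blue for GM-CSF and orange to brown for M-CSF and darker points for LPS. Cxcl3 to Cxcl2 is 1.1 to 1.23 in the GM-BMDM libraries given LPS and 0.0639 to 0.0967 in the M-BMDM libraries given LPS.

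Cxcl2 and Cxcl3 are close relatives whose annotated transcripts share a run of 157 identical bases, 110 in the protein-coding transcripts, whereas Cxcl1 shares no more than 23 with either. The deposited values of Cxcl2 and Cxcl3 were not whole in 8 libraries each, and their sum was whole within 0.011 in all 16, so some reads were divided between the pair and the division is uncertain. The sum of both, which does not depend on it, was upon LPS 3660 and 3840 CPM on TC and 4570 and 4230 CPM on noTC dishes in GM-BMDMs, and 2910 and 3000 CPM on TC and 2080 and 2550 CPM on noTC dishes in M-BMDMs.

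On TC dishes the log2 difference of Cxcl1 between GM- and M-BMDMs was -0.51 ± 0.98 at steady state (95% interval from -2.54 to 1.53, edgeR adjusted p = 0.68), with -1.14 without M-TC replicate 1 and 0.70 without M-TC replicate 2, and 0.14 ± 0.09 upon LPS (95% interval from -0.04 to 0.33, adjusted p = 0.15), a value that was called without the filter (0.14) and in a fit to the 4 libraries alone (0.17). It was higher in GM-BMDMs by 0.61 ± 0.09 in noTC upon LPS (adjusted p = 2.3e-06). On noTC dishes at steady state the value was 0.63 ± 0.27 (adjusted p = 0.046), and this call was lost without GM-noTC replicate 1 (0.62), without GM-noTC replicate 2 (0.61) and without M-noTC replicate 2 (0.18), with library size scaling (0.34) and after the subtraction (0.28).

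Ppbp and Pf4, the platelet-related members, were higher in GM-BMDMs on both dishes with and without LPS. Ppbp was higher in GM-BMDMs by 4.72 ± 0.26 on the log2 scale on TC and 4.28 ± 0.25 on noTC dishes at steady state, and by 4.12 ± 0.25 and 4.99 ± 0.28 upon LPS. Pf4 was higher by 2.93 ± 0.12, 2.47 ± 0.11, 1.98 ± 0.11 and 1.99 ± 0.11 in the same order, with edgeR adjusted p-values from 1.9e-15 to 2.9e-13. Cxcl5, by its counts, was higher in GM-BMDMs 49.9-fold (95% exact interval from 8.49 to 2020) in TC and 38.1-fold (6.27 to 1560) in noTC at steady state, both against 1 count, which lay in replicate 1 of the M group. Upon LPS it was 10.3-fold (5.39 to 22) and 22-fold (8.34 to 82.5) higher. Cxcl16 was lower in GM-BMDMs by 0.42 ± 0.06 and 0.83 ± 0.06 at steady state and by 0.53 ± 0.06 and 0.40 ± 0.06 upon LPS.

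**Figure D5:**
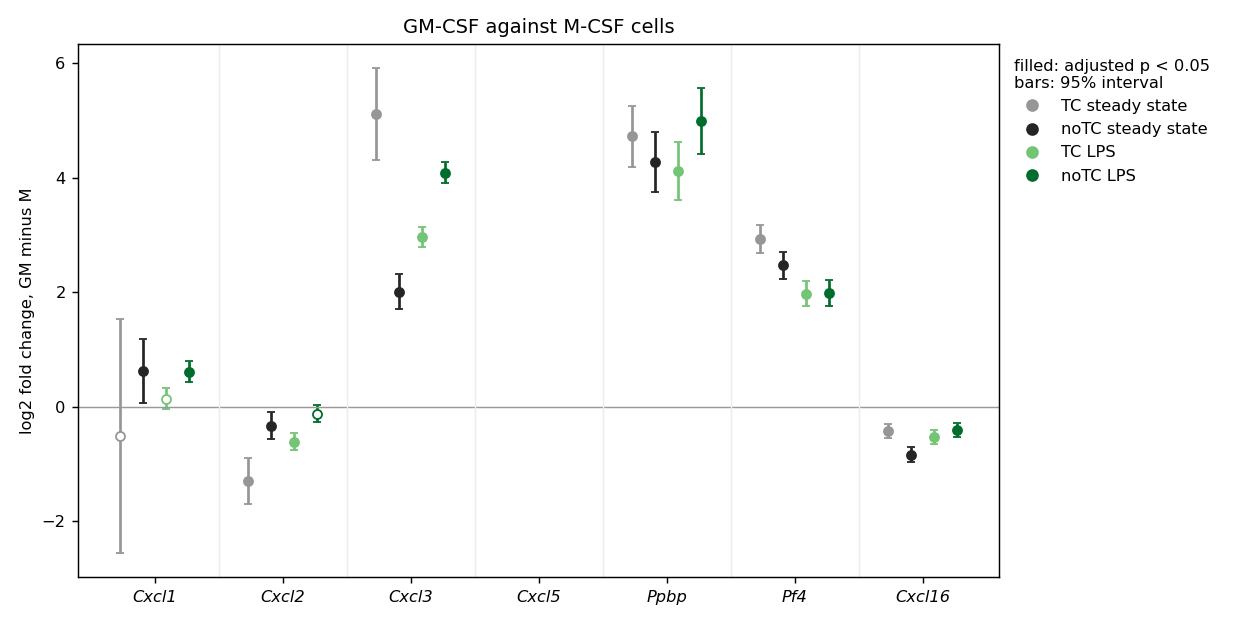
Log2 difference between GM- and M-BMDMs (GM minus M, vertical axis) of each member on both dishes at steady state and upon LPS, with 95% intervals from the edgeR fit and filled points for an adjusted p under 0.05. Cxcl5 is left out because its M-BMDM groups held as few as 1 count; Ppbp lies between 4.12 and 4.99, Pf4 between 1.98 and 2.93, and Cxcl16 below 0 in all 4 conditions.

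Many markers of other cells moved with this difference. The summed level of 11 platelet and megakaryocyte markers was 219 to 298 CPM in GM- and 104 to 143 CPM in M-BMDMs. All 11 had a count in each GM group, and 7 to 11 had one in the M groups. Most of the sum was Vwf, which is also made by endothelium, at 203 to 274 and 102 to 140 CPM. Itga2b, the platelet integrin, was 4.81 to 12 CPM in GM- and 0.0998 to 0.886 CPM in M-BMDMs, Clec1b was 4.14 to 6.04 and 0.0798 to 0.443 CPM, and Gp9 held 10 to 16 counts in each GM group and 0 or 1 in each M group. Treml1 and Tubb1 did not separate GM-TC from M-TC. Treml1 was 1.21 to 1.81 CPM in GM-TC and 1.08 to 1.23 CPM in M-TC, and Tubb1 had 5 counts in each. The summed level of 10 neutrophil markers was 674 to 975 CPM in GM- and 11.2 to 17.5 CPM in M-BMDMs. Nearly all of it was Mmp8, at 646 to 941 and 10.9 to 16.4 CPM. Ngp (4.95 to 17.1 CPM), S100a9 (3.06 to 12), S100a8 (1.87 to 9.85) and Ltf (2.05 to 5.54) were also detected in GM-BMDMs. In M-BMDMs they were at most 0.462, 0.462, 1.08 and 0.2 CPM in the same order. Mpo, Elane, Camp, Retnlg and Ly6g were at most 0.948 CPM in any library. Of these 10 markers 9 or 10 had a count in the GM groups and 5 or 6 in the M groups. The summed level of 4 dendritic cell markers was 14.1 to 71.5 CPM in GM- and 0.465 to 1.15 CPM in M-BMDMs. The part of such cells in the levels of Ppbp, Pf4 or the other members was not tested.

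Growth factor also changed the size of the LPS response of some members. On TC dishes the interaction of growth factor and LPS, coded as the LPS response in GM- minus that in M-BMDMs, was called for 3 members, 1 higher and 2 lower, beside 41.1% of all tested genes (17.8% higher and 23.3% lower). It was 0.69 ± 0.21 for Cxcl2 (edgeR adjusted p = 0.012), -2.14 ± 0.53 for Cxcl3 (0.0023) and -0.95 ± 0.17 for Pf4 (8.8e-05). That of Cxcl2 was not called without GM-TC replicate 1 (0.68), GM-TC replicate 2 (0.71) or M-TC replicate 2 (0.53). On noTC dishes it was 2.08 ± 0.18 for Cxcl3 (adjusted p = 7.2e-09), -0.48 ± 0.16 for Pf4 (0.023) and 0.43 ± 0.08 for Cxcl16 (0.00034), 2 members higher and 1 lower beside 36.2% (16.9% higher and 19.3% lower). The value of Cxcl3 on noTC dishes turned to -1.87 ± 0.58 (edgeR adjusted p = 0.015) after the subtraction, which left 9 and 0 Cxcl3 counts in M-noTC. That on TC dishes rested on 7 counts in M-TC. Both values of Cxcl3 are thus less certain than their SE, and their nearness was not tested. The call of Pf4 on noTC dishes was lost without GM-noTC replicate 1 (-0.42), GM-noTC-LPS replicate 2 (-0.45), M-noTC replicate 1 (-0.49), M-noTC replicate 2 (-0.44) or M-noTC-LPS replicate 1 (-0.38), and with library size scaling (-0.26).

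Other genes of the chemokine pathway were taken from lists by role. Cxcr2, the receptor of the ELR ligands, was at most 0.856 CPM in any library, and Cxcr6, the receptor of CXCL16, was at most 0.872 CPM. Cxcr2 was lower upon LPS in GM-TC (log2 fold change of -2.27 ± 0.96, edgeR adjusted p = 0.042) and in GM-noTC (-2.76 ± 0.83, 0.0057), on 4 and 5 counts upon LPS. Of the 5 receptors and scavengers tested out of 6, 0 or 1 rose and 1 or 2 fell upon LPS, depending on the culture. Of the 5 other CXC ligands tested out of 8, 3 rose upon LPS in GM-TC, GM-noTC and M-TC and 4 in M-noTC, and none fell. Beside these counts, 32.8 to 37.6% of all tested genes were called higher and 34 to 36.4% lower upon LPS, depending on the culture. Cxcl15, which stands within the cluster, had 1 count over all 16 libraries.

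Adam17, a sheddase of CXCL16, rose upon LPS together with its substrate, by 1.26 ± 0.06 on TC and 1.35 ± 0.06 on noTC dishes in GM-BMDMs and by 1.23 ± 0.05 and 1.34 ± 0.05 in M-BMDMs on the log2 scale. Like Cxcl16 it was lower in GM- than in M-BMDMs, by 0.75 to 0.87 on the log2 scale. Adam10, the other sheddase, fell in GM-BMDMs by 0.26 ± 0.06 on TC and 0.25 ± 0.06 on noTC dishes and did not pass the test in M-BMDMs. All 9 genes of NF-kB control rose upon LPS in each of the 4 cultures, beside 32.8 to 37.6% of all tested genes called higher. Nfkbiz, an inducible partner of NF-kB at genes of secondary response, rose by 6.89 ± 0.09 on TC and 6.21 ± 0.08 on noTC dishes in GM-BMDMs and by 4.89 ± 0.07 and 5.15 ± 0.07 in M-BMDMs. Between GM- and M-BMDMs upon LPS all 9 genes were lower in GM-BMDMs on both dishes, beside 32.9% (TC) and 32.6% (noTC) of all tested genes.

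Of 7 tested genes of mRNA decay control, 5 rose and 2 fell upon LPS in each of the 4 cultures. Of all tested genes 67 to 74% were called in either direction in these comparisons, so the number called was not far from that share. Zfp36, which encodes the mRNA decay factor tristetraprolin, rose by 1.45 ± 0.06 on TC and 1.11 ± 0.06 on noTC dishes in GM-BMDMs, and by 4.04 ± 0.06 and 3.31 ± 0.06 in M-BMDMs. Its level upon LPS was 119 ± 0.512 CPM on TC and 119 ± 3.73 CPM on noTC dishes in GM-BMDMs, against 780 ± 59 and 621 ± 1.17 CPM in M-BMDMs. Zc3h12a, which encodes the RNase regnase-1, was instead higher in GM-BMDMs upon LPS, by 0.90 ± 0.06 on TC and 1.42 ± 0.06 on noTC dishes. Csf3, the neutrophil growth factor G-CSF, had at most 1 count in any steady state group and 1.18 to 2.24 CPM in the LPS libraries.

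The genes whose pattern was most like that of each member over the 16 libraries were found by Pearson's r of log2(CPM + 1), given as a description over libraries that share groups. For Cxcl1 they were Gbp5 (r = 0.9961), Il6 (0.9958) and Tpbg (0.9935). For Cxcl2 they were Tnf (0.9972), Ifi205 (0.9964) and Gbp5 (0.9960), and for Cxcl3 they included Tshz1 (0.9917) and Il1rap (0.9902). Ppbp was most like Rnase2a (0.9940), Chil3 (0.9927) and Hvcn1 (0.9925), while Pf4 was most like mt-Cytb (0.9941), mt-Co1 (0.9937) and Cox7b (0.9934). Cxcl5 was most like Slc35f5 (0.9870), Ocln (0.9834) and Gfpt2 (0.9826), and Cxcl16 was most like Pttg1 (0.9849), Cln3 (0.9823) and Armcx5 (0.9776). Of the genes named here, Gbp5 alone stood in the lists of 2 members, Cxcl1 and Cxcl2.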

How the data were processed

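RNA-seq was performed on 16 libraries of BMDMs, in 8 groups of 2 assigned from the sample labels. The authors aligned clean reads with HISAT2 and quantified genes with RSEM. The submitters' processing notes also name fastp 0.18.0, Bowtie2 2.2.8 and StringTie 1.3.1. The genome build and the annotation are not given in the sources used here. The deposited table holds expected counts, not normalized. Values were rounded, since 6.56 to 8.19% of genes per library were not whole. Libraries held 17527802 to 31458363 counts.

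Of 22287 genes, 12514 passed edgeR's expression filter. A quasi-likelihood fit over 8 groups was made in edgeR 4.0.16 (R 4.3.3) with TMM factors (1.11 to 1.39 without LPS, 0.778 to 0.842 with it), and gave a biological coefficient of variation of 4.75%. Calls were made at a BH-adjusted p under 0.05 over all tested genes, two-sided, and SE was derived from the F statistic. For a large fold over a group with few counts, before or after the subtraction, this SE and its 95% interval are too narrow. An exact permutation test of 2 against 2 cannot give a p below 0.333. Exact Poisson intervals at 95% were used where a group held few counts.

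The members, lists, tests and alternatives were chosen with earlier results of these data known. All 7 members are named. Pathway genes with values and the 3 most alike genes per member followed a rule set with those lists. 1 of the alike genes is not reported here. Alternatives were DESeq2 size factors, library size scaling, no filter, only the libraries of a comparison, DESeq2 1.42.0, a replicate block, leaving out each library, the study's thresholds (fold change above 2 and unadjusted p under 0.05) and subtraction of the excess shared by noTC libraries at steady state. Per-kilobase levels used GENCODE vM21 lengths, and the length of the longest protein-coding transcript was added after seeing the data. Scripts were tested on simulated data. Sequences of proteins were not used here.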

Additional observations from a re-analysis of the deposited data

Results flagged for a closer look

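Tests of a difference between fold changes gave 19 values of single members past a BH-adjusted p of 0.05 in edgeR. All are on the log2 scale. Of all tested genes 0.783% (GM) and 10.6% (M) were called for dish by LPS. For dish by growth factor 11.2% (steady state) and 10.6% (LPS) were called. For growth factor by LPS it was 41.1% (TC) and 36.2% (noTC), and the 3 of 7 members called on each dish were not far from these shares. The largest of the 19 values was that of Cxcl3 for dish by LPS in M-BMDMs. The LPS response on noTC minus that on TC dishes was -1.11 for Cxcl3 in GM-BMDMs and -5.32 in M-BMDMs. Its LPS response in GM- minus M-BMDMs was -2.14 on TC and 2.08 on noTC dishes. Its dish effect in GM- minus M-BMDMs was -3.10 at steady state and 1.12 upon LPS. The values of -2.14 and 1.12 involve no noTC library at steady state. Subtracting the excess shared by those libraries could therefore not test them. After it 2.08 became -1.87, with 9 and 0 Cxcl3 counts left in the M-noTC libraries, and the other 3 were not called.

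The LPS response of Cxcl1 on noTC minus TC dishes was -4.07 in GM- and -3.41 in M-BMDMs, and its dish effect upon LPS differed by 0.47 between growth factors. The first 2 of these were -0.80 (adjusted p = 0.9) and -0.48 (adjusted p = 0.85) after the subtraction, and the value in M-BMDMs was -2.78 without M-TC replicate 1 and -4.63 without M-TC replicate 2. For Cxcl2 the noTC minus TC difference of the LPS response was -2.10 in GM- and -1.62 in M-BMDMs, the LPS response on TC dishes differed by 0.69 between growth factors, and the dish effect differed by 0.97 at steady state and by 0.49 upon LPS. After the subtraction the value in GM-BMDMs was 0.15 (adjusted p = 0.93), that in M-BMDMs -0.71 (0.011) and the steady state dish effect -0.36 (0.54). Cxcl16 responded more to LPS on noTC than on TC dishes in GM-BMDMs, by 0.68, and its dish effect at steady state differed by -0.41 between GM- and M-BMDMs. On noTC dishes its LPS response was larger in GM-BMDMs by 0.43. Pf4 responded less to LPS in GM- than in M-BMDMs, at -0.95 on TC and -0.48 on noTC dishes.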

How the results depend on the processing

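Each of 102 values of single members, and the counts of called members, was computed again under each alternative. DESeq2 size factors changed 1 call, the absence of a filter 4, DESeq2 3, and fits restricted to the groups compared 5 of 98. The replicate block changed none of the 102 (6 members were called upon LPS in GM-TC with it and without it). Deviations of same-numbered libraries had r between -0.0689 and 0.0623. As each r rests on 1 pair of libraries, it cannot show whether same-numbered libraries shared a mouse or a preparation. Replicates of 1 group numbered 2, which limits all tests.

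With library size scaling the LPS response turned to -0.26 for Ppbp and -0.10 for Pf4 in GM-TC and to -0.63 for Ppbp in M-noTC. The share of called genes that were higher then went from 49.7 to 20.5% in GM-noTC, from 50.9 to 19.1% in M-TC and from 50.3 to 19% in M-noTC for LPS, from 53 to 27.9% and from 50.6 to 27.5% for GM against M at steady state on TC and noTC, and from 44.5 to 70.5% for the dish in M-BMDMs upon LPS. For the interactions it went from 29.4 to 61.1% (dish by LPS in M), from 43.2 to 78.9% and from 46.6 to 73.2% (growth factor by LPS on TC and noTC) and from 65 to 32.9% (dish by growth factor upon LPS). The subtraction moved that share from 24.5 to 58.8% for dish by LPS in GM.

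The subtraction turned Cxcl3 to -0.11 for the dish in M-BMDMs at steady state, and 4 interactions: Cxcl2 to 0.15 for dish by LPS in GM, Cxcl3 to -1.87 for growth factor by LPS on noTC, and Cxcl2 to -0.36 and Cxcl3 to 0.85 for dish by growth factor at steady state. Members called for the dish in M-BMDMs at steady state went from 4 to 1 (26.8% of all genes), for dish by LPS from 4 to 1 in GM (0.136%) and from 3 to 1 in M (9.96%), and for dish by growth factor at steady state from 3 to 1 (10.6%). The LPS response on noTC dishes went up to between 8.21 and 11.37 for Cxcl1, Cxcl2 and Cxcl3. By construction it acts on the noTC libraries at steady state.

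At the study's thresholds, which require a fold above 2, members called went from 6 to 3 for the dish in GM-BMDMs at steady state (2.73% of all genes), from 4 to 0 for the dish in M-BMDMs upon LPS (2.83%; all 4 had an unadjusted p under 0.05), from 7 to 4 for GM against M on noTC at steady state (22.6%), and from 3 to 1 for growth factor by LPS on TC (13.9%) and on noTC (11.5%) and for dish by growth factor at steady state (3.25%) and upon LPS (2.92%). For the dish in GM-BMDMs upon LPS 0 members went to 2 without the filter (3.32% of all genes), 2 in the libraries of the comparison (4.55%) and 1 in DESeq2 (2.66%), and the cause was not tested. Cxcl2 had the highest level per kilobase in 4 groups, and in 2 with the protein-coding length.

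Leaving out 1 library kept every direction except for values that had not passed the test: Ppbp upon LPS in M-noTC (-0.08 to 0.23), Ppbp for the dish in M-BMDMs at steady state (-0.42 to 0.08), Cxcl5 (-0.57 to 0.002) and Ppbp (-0.32 to 0.20) for the dish in GM-BMDMs upon LPS, Cxcl1 between GM-TC and M-TC (-1.14 to 0.70) and Cxcl2 between GM-noTC-LPS and M-noTC-LPS (-0.25 to 0.03). Members called for the dish in M-BMDMs upon LPS ranged from 1 to 4. A group then holds 1 library, assumed to vary like the others. Low counts limit Cxcl5 in M-BMDMs and Cxcl1 and Cxcl3 on TC dishes at steady state.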
